A study of Mus musculus with 4 samples.

Results

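Lung multiplets with endothelial RNA were studied across genes in 1 droplet library. A multiplet is a cluster of cells that stayed together through dissociation and was sequenced under 1 cell barcode. Members were chosen by their own counts: the unique molecular identifiers (UMIs, counted RNA molecules) of Pecam1, Cdh5, Cldn5 and Egfl7 had to sum to 5 or more per 10000 UMIs. This rule selected 635 of the 4729 lung multiplet barcodes (13.4%, exact 95% interval 12.5% to 14.4%), and 4094 barcodes stayed outside it. The series holds 19763 barcodes of C57BL/6J mice, an inbred strain, in 4 libraries: singlets and multiplets of the lung and of the small intestine. The cells came from tissue dissociated mechanically and with enzymes, and the study asked which cell types make up each multiplet. Each library stands alone in its group and separate animals are not named in the labels. No difference below therefore has a replicate check, and no p-value is given. All intervals are exact 95% intervals, the limit given for a share of 0 is 3 counts over the group, and both cover counting error only. Members were compared with the 4094 other lung multiplets and with the 119 lung singlets that the authors' deposited annotation calls Endothelial.

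Endothelial cells line blood and lymph vessels. In the alveolus, where gas is exchanged, mouse capillaries hold general capillary cells, which carry Gpihbp1 and Plvap and can renew the bed, and aerocytes, large cells that carry Ednrb and Car4 and lie against the thin type I pneumocytes. Pericytes wrap capillaries from outside and share their basement membrane, while smooth muscle surrounds arteries and veins.

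The members held 7296446 UMIs in all, with a median of 9243 per barcode (5027 to 48970). The median was 12174 UMIs in the other multiplets and 5205 in the Endothelial singlets (2193 to 27528). Mitochondrial genes took a median of 2.98% of UMIs in members, 3.37% in other multiplets and 2.71% in Endothelial singlets. The lung libraries shared 2 barcodes, none of them a member. Scgb1a1, the secretoglobin of club cells, had a UMI in 634 of 635 members, in all 4094 other multiplets and in 110 of 119 Endothelial singlets (92.4%), at medians of 9.74, 9.38 and 5.50 UMIs per 10000. Whether this is free RNA was not tested.

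The 4 genes of the rule all act at the endothelial surface or junction. Pecam1 (chr11:106654213-106715281) encodes an adhesion molecule between endothelial cells, and Cdh5 (chr8:104101613-104144504) encodes VE-cadherin of the adherens junction. Cldn5 (chr16:18776847-18778262) encodes the claudin of endothelial tight junctions, and Egfl7 (chr2:26581083-26592682) encodes a secreted matrix protein of vessels. These spans are those of RefSeq on GRCm38.p6. As a description of the selection, the summed level ran from 5.055 to 159.2 UMIs per 10000 in members, with a median of 41.7. Endothelial singlets ran from 1.96 to 151.2, with a median of 53.3, so members and singlets overlapped over almost the whole range. The members nearest the limit held 3 UMIs of 5935 (5.055 per 10000) and 17 of 33614 (5.057 per 10000), and the nearest barcodes outside it held 16 of 33044 (4.842 per 10000) and 4 of 8338 (4.797 per 10000).

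Most members carried the whole set of selecting genes. All 4 genes had a UMI in 578 members (91.0%), 3 genes in 44, 2 genes in 7 and a single gene in 6. Cldn5 ranged from 0 to 81.3 UMIs per 10000 with a median of 12.5, Egfl7 from 0 to 37.9 with a median of 10.6, Cdh5 from 0 to 46.1 with a median of 8.18, and Pecam1 from 0 to 40.1 with a median of 7.96. In Endothelial singlets the medians were 18.4 for Cldn5, 12.3 for Egfl7, 9.89 for Cdh5 and 8.09 for Pecam1. Applied to the singlets, the rule took 117 of the 119 Endothelial barcodes and 31 of the 5965 barcodes of all other classes (0.520%). Of those 31, 13 were among the 190 B-cell singlets, whose median was 3312 UMIs.

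**Figure D1:**
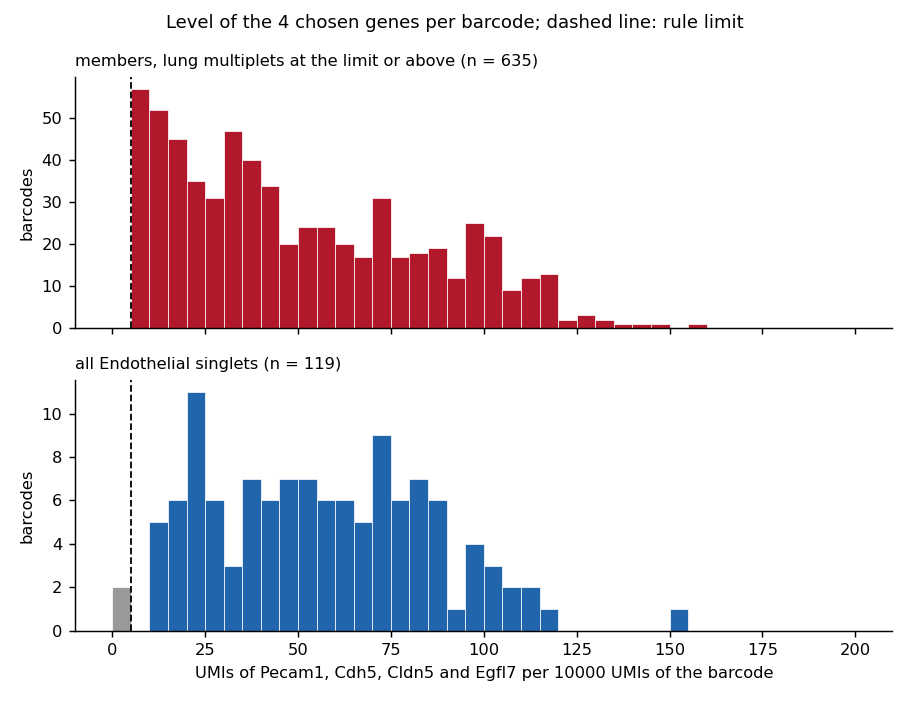
Number of barcodes (y axis) by the summed level of Pecam1, Cdh5, Cldn5 and Egfl7 in UMIs per 10000 (x axis), for the 635 members above and the 119 Endothelial singlets below, with the limit of the rule dashed. Members begin at 5.055 by the rule and have a median of 41.7, the singlets have a median of 53.3, and the 2 grey singlets lie under the limit.

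The windows before the Egfl7 starts are shown because Egfl7 was the selecting gene found in most members and its windows hold the core of the ETS motif, bound by the family of Erg and Fli1. The motif searched was AGGAAG on both strands, printed in capitals, in the 250 bases before each start from RefSeq (GRCm38.p6, plus strand). The first lies at chr2:26580833-26581082 and holds 3 matches, 216, 89 and 49 bases before the start. The second, at chr2:26583615-26583864, holds 1 match, 80 bases before the start.
Egfl7 start 1: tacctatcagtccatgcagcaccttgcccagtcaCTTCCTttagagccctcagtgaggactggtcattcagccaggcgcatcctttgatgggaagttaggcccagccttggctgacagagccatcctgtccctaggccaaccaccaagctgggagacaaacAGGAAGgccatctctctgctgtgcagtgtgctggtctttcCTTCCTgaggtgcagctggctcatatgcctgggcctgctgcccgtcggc
Egfl7 start 2: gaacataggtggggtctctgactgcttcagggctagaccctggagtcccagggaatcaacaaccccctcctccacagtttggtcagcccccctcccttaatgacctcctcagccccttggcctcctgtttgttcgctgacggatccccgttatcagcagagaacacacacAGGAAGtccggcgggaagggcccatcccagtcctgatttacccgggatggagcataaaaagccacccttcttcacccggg
Of 32851 windows of this length in the table, 29.5% hold AGGAAG, so a match is common. The window of the last Egfl7 start and those of Cldn5, Ednrb and Car4 hold none, and TGTTTAC, a forkhead core found in 3.17% of windows, is in none of them. No window was available for Pecam1, Cdh5, Gpihbp1 and Plvap, so these genes could not be searched.

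The label was checked on 21 pan-endothelial genes that the rule did not use. At 5000 randomly kept UMIs per barcode, 3 or more UMIs of this list were present in 631 of 635 members (99.4%), in 61 of the 62 Endothelial singlets deep enough to be thinned (98.4%) and in 10.9% of the other multiplets. The other 57 Endothelial singlets were left out here as too shallow. Ramp2, the partner of the adrenomedullin receptor, had a UMI in 626 members and a median of 14.8 UMIs per 10000. Calcrl, that receptor, had a UMI in 623 members and a median of 13.7. Both genes had a median of 0 in the other multiplets. The barcodes chosen by the rule thus also carried the wider endothelial set, as did the Endothelial singlets.

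Against the other multiplets, genes were called by size: at least 2-fold in summed counts per 1e6 UMIs (CPM), with 20 CPM or more in the higher group. Of 7581 genes measured, 1033 were higher in members (13.6%) and 589 were lower (7.77%). The log2 ratio had a median of 0.25 over all of them. Scaled by the trimmed mean of M-values (TMM), 852 were higher and 860 lower, which moved the share of higher calls from 63.7% to 49.8% and the median to 0.02. This contrast repeats the selection, so its ratios are given as a description. All 21 pan-endothelial genes were called higher, with a median log2 ratio of 6.69, and summed they were 52.2 times as high (51.2 to 53.2).

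The 12 genes with the highest ratios were vessel genes, led by those of lymphatic endothelium. Mmrn1, a multimerin of lymphatic cells, stood at 243 CPM in members and 0.237 CPM in other multiplets (ratio 1022, 608 to 1873). Ccl21a, the chemokine that draws dendritic cells into lymph vessels, stood at 1291 CPM and 2.15 CPM (ratio 600, 503 to 720). Reln and Flt4, the receptor of lymphatic growth factors, had ratios of 907 and 374. The next were Cytl1 (342), Nova2 (275), Emcn, a sialomucin of veins and capillaries (255), Adgrl4 (246), Edil3 (224), Sox18 (217), Tie1 (212) and Ptprb, the endothelial phosphatase that acts on Tek (211). The lymphatic genes came from few barcodes: 10 members held 41.4% of the Mmrn1 UMIs and 41.5% of those of Ccl21a, against 9.29% for Emcn.

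The 12 genes with the lowest ratios included products of airway secretory cells and fibroblasts. Ltf, lactoferrin, stood at 3.98 CPM in members and 97.1 CPM in other multiplets (ratio 0.0410, 0.0274 to 0.0589). The secretoglobins Scgb3a1, Scgb3a2 and Scgb1a1 had ratios of 0.110, 0.147 and 0.156, and Bpifb1 and Reg3g had ratios of 0.0582 and 0.127. Lrat, Mmp3, Crispld2, Hp, Col13a1 and Ccn5 lay between 0.234 and 0.273. Although Scgb1a1 was summed to less in members, its median per barcode was much the same in both groups, and 10 members held 80.9% of their Scgb1a1 UMIs.

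Read by role, the members held both sides of the vessel signalling pathways. Over all measured genes 13.6% were called higher and 7.77% lower, to be set beside each count by role. Of the 5 ligands of the VEGF family, Vegfa (2.98), Vegfc (18.4) and Pgf (15.6) were higher than in other multiplets, Vegfd was lower (0.410) and Vegfb was not called (0.815). All 5 VEGF receptors and coreceptors were higher, among them Kdr, the main receptor of Vegfa, at 632 CPM against 11.8 CPM (ratio 53.4). Among 5 angiopoietin and Tie genes, 4 were higher: the receptors Tek (103) and Tie1 (212), Ptprb (211) and the antagonist Angpt2 (3.67). The agonist Angpt1, a product of mural cells, was lower (0.489).

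Notch and BMP genes were read by role as well, from ligands to targets. The share of all measured genes called higher was 13.6%. All 8 Notch genes measured were higher, with Dll4, the ligand of sprouting and arterial cells, at 128 times and the target Hes1 at 2.32 times the other multiplets. Of 10 BMP and TGF-beta genes 8 were called higher, including Bmp6 (159), the coreceptor Eng (53.9), the receptor Acvrl1 (16.6) and the target Id1 (10.2). Id3 (1.94) and Tgfbr2 (1.23) were not called. All 10 measured endothelial transcription factors were higher, with Erg at 112, Sox17 at 183, Gata2 at 54.4 and Foxf1, a factor of lung mesenchyme and capillaries, at 33.2.

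Genes for what vessels do were higher in most lists, where 13.6% of all measured genes were called higher and 7.77% lower. Of 15 genes of vascular tone and flow, 13 were called higher, such as Edn1, the constrictor endothelin (83.3), Ece1, which activates it (9.19), Nos3, the endothelial nitric oxide synthase (28.0), and the flow-induced factor Klf2 (5.15). Coagulation had 4 of 7 genes higher, among them Vwf (52.5) and Thbd, thrombomodulin (8.37). Leukocyte adhesion had 4 of 6 and cell junctions outside the rule 5 of 9. Of 11 lipid and caveolae genes 8 were higher, with Gpihbp1, which holds lipoprotein lipase on capillaries, at 158. Fabp5, Lpl and Meox2 were lower. In the basement membrane list 5 of 12 genes were higher, with Col4a1 at 3.08, and 2 were lower, with Npnt at 0.361.

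Lists of other lung cells were mostly lower in members than in other multiplets. The 6 type II pneumocyte genes summed to 0.446 of the level in the others, 7 fibroblast genes to 0.370, 7 alveolar macrophage genes to 0.362, 4 interstitial macrophage genes to 0.425 and 7 neutrophil genes to 0.365. The 7 surfactant genes were all called lower (0.383), where 7.77% of all measured genes were called lower and 13.6% higher. Pericyte genes went the other way, at 12.1 times (10.7 to 13.6). So did smooth muscle genes, at 1.675 times (1.596 to 1.757), and erythroid genes, at 19.8 times with 97.4% of their UMIs in 10 members. Ciliated genes were level, at 0.966 times (0.915 to 1.021). Type I pneumocyte genes were near the level of the others, at 1.13 times, and the direction turned to 0.973 with TMM and to 0.906 when barcodes were weighted equally. Within that list Rtkn2 (3.05), Akap5 (2.89) and Spock2 (2.10) were called higher, while Ager (1.19) and Aqp5 (0.646) were not called.

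**Figure D2:**
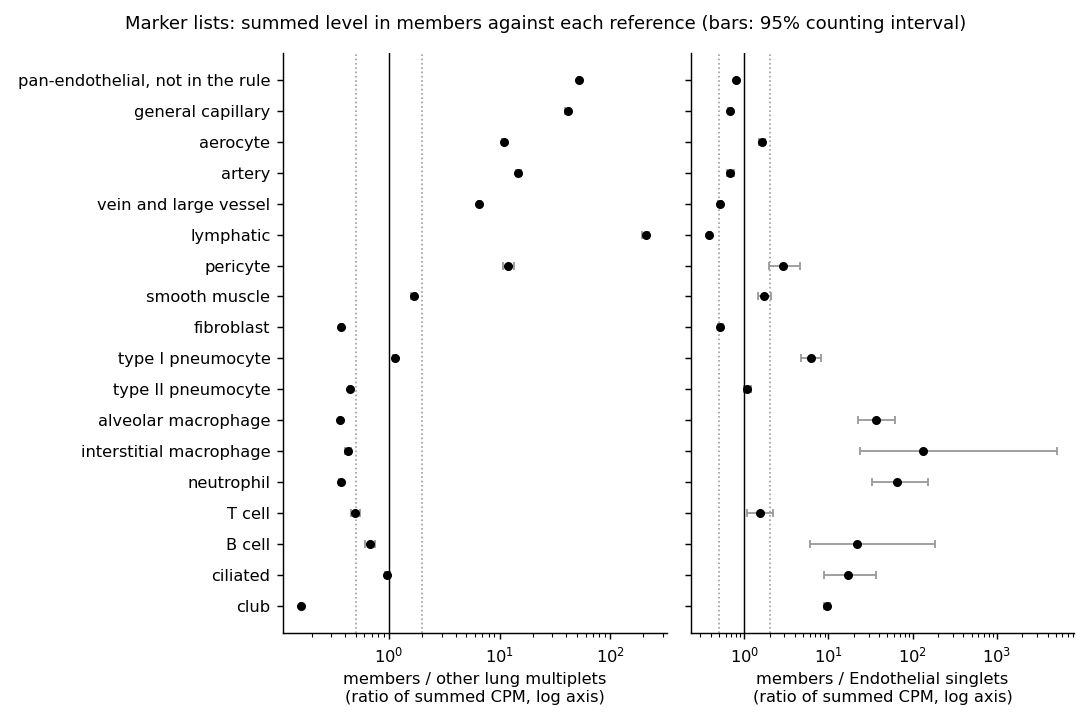
Ratio of summed CPM for each gene list, members over other lung multiplets and members over Endothelial singlets, on a log axis with exact 95% intervals. Pan-endothelial genes stand at 52.2 against other multiplets and at 0.804 against Endothelial singlets, and pericyte genes lie above 1 in both.

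What else each member held was first read from a mixture fit. Each barcode was described as a sum of the authors' 13 lung singlet classes over 520 class genes, with a weight of at least 0.15 taken as a call. An endothelial weight was called in 572 members (90.1%) and in only 8 of the 4094 others. Endothelial was the sole class in 354 members (55.7%). It stood with 1 other class in 192 (30.2%), and with 2 or more other classes in 26 (4.09%). The 63 members without an endothelial call had a median level of 8.91, up to 43.5, and a median of 16389 UMIs, and 59 of them had the pan-endothelial list. Fitted without the rule genes, 563 members had an endothelial call, and 626 of the 635 had the same outcome, called or not called, as before.

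Barcodes that fit a single class are common in this multiplet library. At least 2 classes were called in 238 members (37.5%, 33.7% to 41.4%), in 22.1% of the other multiplets and in 22 of the 119 Endothelial singlets (18.5%). A cluster of cells of 1 class and a single cell cannot be told apart by such a fit. The share with 2 or more classes was 59.7% of the 57 members at a level of 5 to 10, 83.5% at 10 to 20, 47.8% at 20 to 50, 11.1% at 50 to 100 and 1.49% of the 67 at 100 or more. The bands are cut on the level of the rule genes, and 3 of these genes were also used by the fit. The 2 readings are therefore not independent, and the shares by band are given as a description. Median depth fell as well, from 17213 UMIs in the lowest band to 6271 in the highest. Whether RNA of a partner lowered the level was not tested.

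Other classes were counted over all 635 members, with or without an endothelial call. Macrophage was called in 74 members (11.7%, against 24.1% of other multiplets), Pneumocyte Type-II in 50 (7.87% against 21.8%), Fibroblast-1 in 45 (7.09% against 27.3%) and Alveolar Macrophage in 40 (6.30% against 21.9%). Pneumocyte Type-I was called in 23 members (3.62%, 2.31% to 5.39%) against 1.49% of the others (1.14% to 1.91%) and 0 of 119 Endothelial singlets, which allows up to 2.52%. The singlets are shallower and were fitted with other profiles than the multiplets, so their share is not on the same footing. The Type-I reference holds only 6 singlets, and 1 of these 6 itself passes the rule of the 4 endothelial genes. Whether endothelial RNA in that reference raised the Type-I calls in members was not tested. Apart from Pneumocyte Type-I, no class of these 5 had a higher share in members than in the others. Beside an endothelial call, Macrophage was called in 41 members, Pneumocyte Type-II in 40, Fibroblast-1 in 40, Alveolar Macrophage in 29 and Pneumocyte Type-I in 22.

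Marker lists gave a second reading, at 5000 UMIs per barcode and with 3 or more UMIs of a list. At least 1 of 19 lists of other cells was present in 592 members (93.2%), but also in 71.0% of Endothelial singlets. Club markers alone were present in 541 members (85.2%), 85.4% of other multiplets and 46.8% of Endothelial singlets, and monocyte markers in 66.7% of the multiplets fitted as B-cell alone. Without these 2 lists, a choice made after their values were seen, 308 members had a partner list (48.5%, 44.6% to 52.5%). That share was 15.5% of the 354 members fitted as endothelial alone, 195 of the 218 fitted with other classes, 95.5% of the other multiplets and 22 of 62 Endothelial singlets (35.5%, 23.7% to 48.7%).

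**Figure D3:**
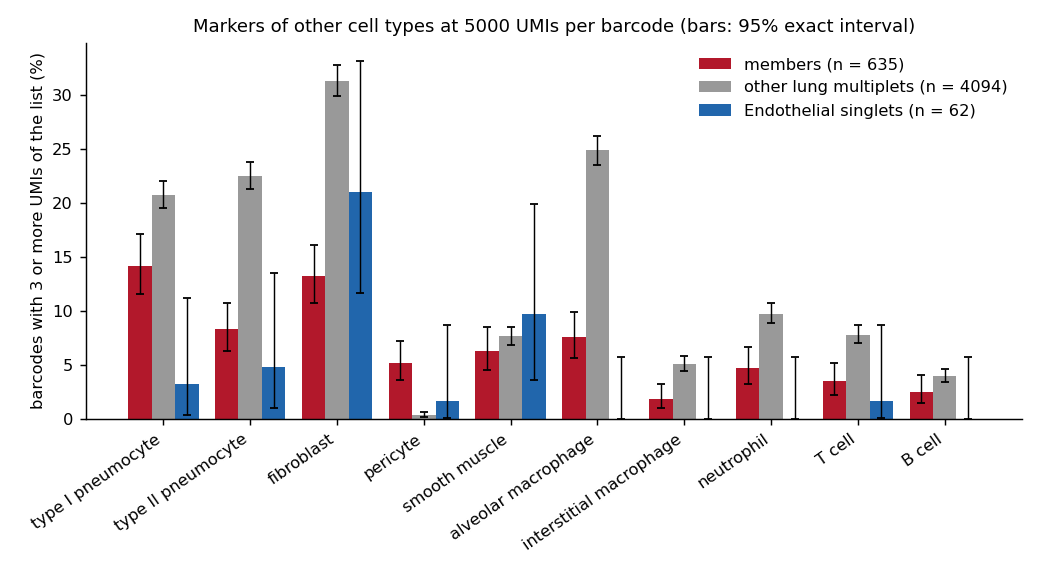
Share of barcodes in percent with 3 or more UMIs of each partner list at 5000 UMIs, for members, other lung multiplets and Endothelial singlets, with exact 95% intervals. Pericyte markers are in 5.20% of members and 0.366% of the others, while most other lists have a lower share in members.

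Type I pneumocytes, the flat cells that form the air side of the gas exchange barrier, were tracked with Ager, Rtkn2, Akap5, Aqp5 and Spock2. Ager, the receptor for glycation end products, had a UMI in 162 members (25.5%), from 0 to 105 UMIs per 10000, in 29.2% of other multiplets, and in 9 Endothelial singlets (7.56%), where it reached 6.04. The list was present in 90 members (14.2%), in 20.7% of the others and in 2 of 62 singlets (3.23%), and without thinning in 20.6%, 27.7% and 4.20%. It was also present in 85.0% of the multiplets fitted as Pneumocyte Type-II alone (median 14488 UMIs), so the list by itself does not separate the pneumocyte types. It was present in 0.657% of those fitted as Alveolar Macrophage alone (median 12443 UMIs) and 0.376% of those fitted as Fibroblast-1 alone (median 9366 UMIs).

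The type II cells were therefore taken out, again after the values were seen. Type I markers without type II markers were present in 53 members (8.35%, 6.31% to 10.8%) and in 105 other multiplets (2.57%, 2.10% to 3.10%). The full list went the other way, at 14.2% and 20.7%. The step took out the 37 members and 744 others that had both lists, so it changed the others more. Type I markers without type II markers were in 0 of the 822 multiplets fitted as Pneumocyte Type-II alone, which allows up to 0.365%. They were also in 0 of the 62 Endothelial singlets, which allows up to 4.84%. The 53 members held from 3 to 341 UMIs of the list without thinning, with a median of 13, and 11 of them sat at the limit of 3 after it. The mixture fit called Type-I in 23 of the 53 and called endothelial alone in 17. General capillary markers were present in 46 of the 53 and aerocyte markers in 16. Over all 635 members general capillary markers were in 80.2%, and aerocyte markers without Car4 and Tbx2 in 36.2%.

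Pericytes were tracked with Cox4i2, Higd1b, Notch3, Trpc6 and Cspg4. The list was present in 33 members (5.20%, 3.60% to 7.22%) and in 15 other multiplets (0.366%, 0.205% to 0.604%). The background was 0.328% of multiplets fitted as Alveolar Macrophage alone, 0.125% of those fitted as Fibroblast-1 alone and 1.61% of Endothelial singlets. Without thinning it was 6.14% of members, 0.489% of the others and 0.840% of Endothelial singlets. Higd1b, a hypoxia-induced gene typical of lung pericytes, had a UMI in 62 members (9.76%), 0.733% of the others and 0.840% of Endothelial singlets. Cox4i2, a respiratory chain subunit, had one in 78 members (12.3%), 2.54% of the others and 1.68% of the singlets. The 33 members had a median level of 43.3 UMIs per 10000 of the rule genes, and all 33 had an endothelial call. The authors' classes name no pericyte, so the mixture fit could not call one, and 10 members held 40.3% of the list's UMIs.

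Fibroblasts and smooth muscle were the other stromal cells examined. Fibroblast markers were present in 84 members (13.2%), 31.3% of the others and 21.0% of Endothelial singlets, a share of singlets no lower than that of members. Smooth muscle markers were present in 40 members (6.30%), 7.65% of the others and 9.68% of the singlets. Of those 40 members 20 also had vein markers, without Nr2f2, which 87.3% of multiplets fitted as Fibroblast-1 alone carried. Over all members these vein markers were in 30.55%. Myh11, smooth muscle myosin, was 2.98 times as high as in the others.

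Immune markers were in fewer members than others. Alveolar macrophage markers were in 48 members (7.56%) against 24.9%, neutrophil markers in 30 (4.72%) against 9.75%, T cell markers in 22 (3.46%) against 7.82% and interstitial macrophage markers in 12 (1.89%) against 5.13%. None of the 62 Endothelial singlets had alveolar macrophage, interstitial macrophage or neutrophil markers, which allows up to 4.84% each. An endothelial call was made in 36 of the 48 members with alveolar macrophage markers, 16 of the 30 with neutrophil markers and 2 of the 12 with interstitial macrophage markers. C1qa, a complement gene of interstitial macrophages, had a UMI in 18 members, and 10 members held 93.3% of that list's UMIs.

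Single barcodes show the range, as raw UMIs. The member nearest the 10th percentile of the level had 11296 UMIs, with Pecam1 at 4, Cdh5 at 1, Cldn5 at 3 and Egfl7 at 4, and 96 UMIs of alveolar macrophage markers. Its fitted weight was 0.868 for Alveolar Macrophage and 0.132 for Endothelial. The member nearest the median had 26381 UMIs, with Cldn5 at 43, Ednrb at 20 and Car4 at 17 beside the neutrophil alarmins S100a8 at 45 and S100a9 at 74. The member nearest the 90th percentile had 7829 UMIs and an endothelial weight of 0.982, with Gpihbp1 at 16. These 3 barcodes were picked by the level itself and cannot stand for all members. The member richest in neutrophil markers had a level of 43.5 but an endothelial weight of 0.0609.

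Members with the most UMIs of a partner list were as varied. The one richest in type I markers had 5812 UMIs, with Ager at 61, Aqp5 at 16, Rtkn2 at 8, Akap5 at 8 and Spock2 at 7, no type II marker, and Cdh5 at 11 and Cldn5 at 9. The one richest in neutrophil markers had 7351 UMIs, with S100a9 at 276, S100a8 at 230, Retnlg at 52 and Pecam1 at 11. The one richest in interstitial macrophage markers had 11392 UMIs, with C1qa at 111, C1qb at 53, C1qc at 45 and Cldn5 at 9. The one richest in fibroblast markers had 6130 UMIs, Dcn at 124, and Egfl7 at 4 as its only selecting gene, so it passed the rule on 1 gene.

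Vessel types were read from lists at 2 or more UMIs, again at 5000 UMIs. General capillary markers (Gpihbp1, Plvap, Aplnr, Kit, Sema3c, Glp1r) were in 509 members (80.2%), 48 of 62 Endothelial singlets (77.4%) and 2.61% of the other multiplets. Aerocyte markers without Car4 and Tbx2, which had a UMI in 44.5% of multiplets fitted as Alveolar Macrophage alone and 69.7% of those fitted as Fibroblast-1 alone, in that order, were in 230 members (36.2%, 32.5% to 40.1%), 15 of 62 singlets (24.2%, 14.2% to 36.7%) and 3.44% of the others. The background was 11.5% of multiplets fitted as Fibroblast-1 alone and 0 of 609 fitted as Alveolar Macrophage alone. Without thinning it was 41.9% of members and 22.7% of singlets. With all 7 genes the list was in 46.1% of members.

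Both capillary lists met in many barcodes. Of the 635 members, 358 had general capillary markers without aerocyte markers (56.4%), 79 had aerocyte markers without general capillary markers (12.4%) and 151 had both (23.8%). Both were in 8 of 62 Endothelial singlets (12.9%, 5.74% to 23.9%), and the interval in members was 20.5% to 27.3%. The 151 members had a median of 8331 UMIs and a median rule level of 76.8 per 10000, and 120 of them were fitted as endothelial alone. Whether 2 capillary cells or 1 cell with both sets lie behind such a barcode cannot be told apart here.

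**Figure D4:**
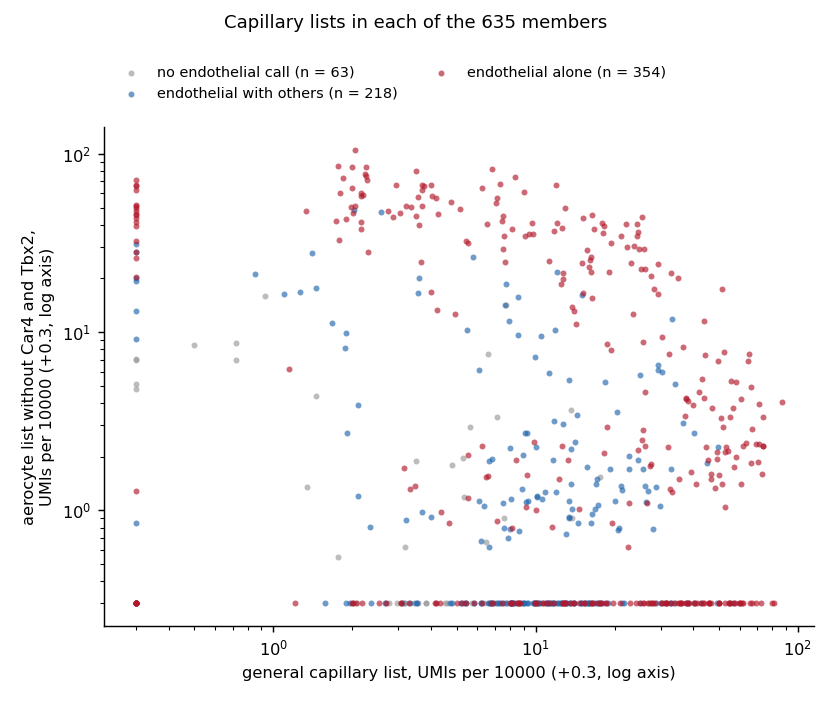
General capillary genes (x axis) and aerocyte genes without Car4 and Tbx2 (y axis) in UMIs per 10000 without thinning, on log axes with 0.3 added so that zeros show at the left and lower edge. Each point is 1 of the 635 members, in red where fitted as endothelial alone (354), in blue with other classes (218) and in grey without an endothelial call (63), and many points are high on both axes.

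Partner markers were set beside these capillary groups. Type I markers were in 63 of the 358 members with general capillary markers alone (17.6%, 13.8% to 22.0%), 8 of the 79 with aerocyte markers alone (10.1%, 4.47% to 19.0%) and 14 of the 151 with both (9.27%, 5.16% to 15.1%), so the intervals overlap. Pericyte markers were in 31 members with general capillary markers of the 33 that had them: 19 of the 358, 12 of the 151, and 1 of the 79 with aerocyte markers alone (1.27%, 0.0320% to 6.85%). Over all members general capillary markers were in 80.2%. Alveolar macrophage markers were in 9.50% of those with general capillary markers alone, 3.80% of those with aerocyte markers alone and 1.99% of those with both. The median rule level was 32.3 with general capillary markers alone, 89.6 with aerocyte markers alone and 76.8 with both. The groups thus also differ in how much of the barcode is endothelial RNA.

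Aerocyte RNA was also set against the endothelial RNA of the same barcodes. Per 100 UMIs of the 21 pan-endothelial genes, Ednrb, the endothelin B receptor of aerocytes, stood at 3.22 in the 354 members fitted as endothelial alone. It stood at 0.837 in the 29 fitted with Alveolar Macrophage, 1.42 in the 41 with Macrophage, 1.82 in the 40 with Fibroblast-1, 1.98 in the 22 with Pneumocyte Type-I, 2.19 in the 40 with Pneumocyte Type-II and 0.864 in the Endothelial singlets. Gpihbp1 varied less, at 2.92 in members alone, 3.48 with Alveolar Macrophage, 4.45 with Pneumocyte Type-I and 3.28 in the singlets. Median depth also differed, from 7254 UMIs in members alone to 18076 with Pneumocyte Type-II, and its part in these values was not tested.

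Markers of veins, arteries and lymphatics were read in the same way. Vein markers without Nr2f2 were in 194 members (30.6%) and 25 of 62 singlets (40.3%), and artery markers without Gja5 in 317 (49.9%) and 25 (40.3%). Lymphatic markers without Lyve1 and Flt4 were in 49 members (7.72%, 5.76% to 10.1%), 20 of 62 singlets (32.3%, 20.9% to 45.3%) and 0.147% of the others. Without thinning they were in 7.72% of members and 17.6% of all 119 Endothelial singlets. No member had exactly 2 UMIs and 15 had 1, so few barcodes lay near the limit. Ccl21a reached 258.7 UMIs per 10000 in 1 member and had a UMI in 61, against a highest value of 2.13 in other multiplets.

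The 49 members with lymphatic markers carried few stromal markers. None had fibroblast, pericyte or smooth muscle markers, which allows up to 6.12% each. Neutrophil markers were in 7 of them (14.3%, 5.94% to 27.2%), against 4.72% of all members (30 barcodes). The fit called 36 of the 49 endothelial alone. Mmrn1 per 100 pan-endothelial UMIs stood at 3.02 in members fitted as endothelial alone, 1.94 in those with Macrophage, 0.0322 with Alveolar Macrophage and 0 with Pneumocyte Type-I.

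Against the 119 Endothelial singlets, 7626 genes were measured by the same rule of size. In members 429 were higher (5.63%) and 198 lower (2.6%). The log2 ratio had a median of -0.08. These are different libraries, so library and cell cluster cannot be told apart. None of the 21 pan-endothelial genes was called. They summed to 0.804 of the singlet level (0.788 to 0.821), with a median log2 ratio of -0.38, and to 1.02 of it against the 62 deep singlets. None of the 11 endothelial transcription factors or 6 general capillary genes was called either. Plvap, of the diaphragms of capillary pores, stood at 478 CPM against 888 CPM (ratio 0.538), and Kdr at 632 against 621 CPM.

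Ednrb was the aerocyte gene called higher, at 286 CPM in members and 113 CPM in singlets (ratio 2.53, 2.04 to 3.17). It had a UMI in 237 members (37.3%), 14 Endothelial singlets (11.8%) and 1.61% of other multiplets, and reached 48.5 UMIs per 10000. Car4, a carbonic anhydrase on capillary membranes, had one in 319 members (50.2%) and 29 singlets (24.4%), with a ratio of 1.55. Apln (1.65), Chst1 (1.60), Fibin (1.44), Prx (1.35) and Tbx2 (1.28) were not called. The 7 genes summed to 1.62 times the singlets (1.49 to 1.76), 1.72 times with TMM, 1.59 times against the deep singlets and 2.37 times with barcodes weighted equally.

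Most lymphatic genes were lower than in the singlets. Over all measured genes 2.6% were called lower, to be set beside the counts of each vessel list. In the lymphatic list 5 of 6 genes were called lower: Ccl21a (0.328), Reln (0.403), Prox1, the lymphatic master regulator (0.404), Flt4 (0.412) and Mmrn1 (0.423), while Lyve1 was not (0.578). Among singlets, 10 barcodes held 68.5% of the Ccl21a UMIs, so the singlet level rests on few cells. In the vein list 2 of 6 genes were called lower, the selectins Selp (0.295) and Sele (0.227) of activated veins, and all 40 singlet UMIs of Sele came from at most 10 barcodes. Vwf (0.505), Slc6a2 (0.525), Nr2f2 (0.618) and Ephb4 (0.665) were not called. In the artery list 2 of 6 genes were called lower, Hey1 (0.452) and Gja5 (0.441), while Gja4 (0.889), Sox17 (0.770), Efnb2 (0.683) and Bmx (0.652) were not. Gja5 also had a UMI in 33.8% of multiplets fitted as Fibroblast-1 alone. F8 (0.268), the ligands Angpt1 (0.427) and Angpt2 (0.428), Nrp2 (0.419) and the matrix genes Lama4 (0.418), Nid2 (0.304) and Npnt (0.354) were lower.

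Genes of other cells made up the 12 highest ratios against singlets. Ccl6, a macrophage chemokine, stood at 348 CPM in members on 1 singlet UMI (ratio 265, 47.5 to 10467). S100a9 stood at 316 CPM on 4 singlet UMIs (ratio 60.1, 23.5 to 221), and S100a8, Il1b and Cxcl2 were likewise high on 4, 4 and 5 singlet UMIs (53.4, 55.4 and 53.6). Bpifa1 (192, 65.7 to 932), Cyp2f2 (84.3, 23.3 to 697), Mpeg1 (81.9, 14.7 to 3239), Spi1 (55.9, 9.98 to 2210), Atp6v0d2 (48.9, 8.73 to 1935), Cybb (47.0, 16.1 to 228) and Cd300c2 (43.0, 7.68 to 1704) rested on 1 to 3 singlet UMIs each. Of Bpifa1, an airway secretory gene, 10 members held 96.9% of the UMIs. Type I genes were all 5 higher, summing to 6.12 times the singlets (4.69 to 8.15), with Ager at 7.03 (4.85 to 10.6). Pericyte genes summed to 2.91 times on 25 singlet UMIs, with Higd1b at 3.46 and Cox4i2 at 2.91. Of 7 MHC class II genes 6 were higher, with Cd74 at 3.96. Over all measured genes 5.63% were called higher than in the singlets.

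The 12 lowest ratios included genes of lymphocytes and fibroblasts as well as vessels. Ccl5 and Nkg7, of cytotoxic lymphocytes, had ratios of 0.193 (0.161 to 0.232) and 0.216, and at most 10 singlets held all UMIs of each. Ptx3, a pentraxin, was at 0.212, Pi16 at 0.227, Lrrn4cl at 0.242, Ccn5 at 0.263, Pdgfra, the fibroblast receptor, at 0.277, Prkcq at 0.283, AA467197 at 0.288 and Col23a1 at 0.294. The singlets thus held RNA of other cells too.

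To set endothelial RNA beside endothelial RNA, the 354 members and the 94 Endothelial singlets fitted as endothelial alone were compared, a comparison added after the values were seen. Their median depths were 7254 and 4462 UMIs. Of 7427 genes, 192 were higher in the members and 160 lower. The log2 ratio had a median of -0.04. The pan-endothelial list stood at 1.0 times the singlets and MHC class II genes, 3.87 times in all members, at 0.901 times. Both groups were kept by a fit that called endothelial and no other class. These 2 levels therefore partly follow from the choice of barcodes and are given as a description. The aerocyte list stood at 2.66 times the singlets. Ednrb was 4.11 times as high (3.21 to 5.35), Apln 2.89, Fibin 2.78, Tbx2 2.64, Chst1 2.50, Car4 2.36 and Prx 1.83. Type I genes stood at 3.40 times, on only 15 UMIs in these singlets. General capillary genes, on 1400 UMIs, stood at 0.752, Plvap at 0.632, Mmrn1 at 0.818 and Ccl21a at 0.529.

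**Figure D5:**
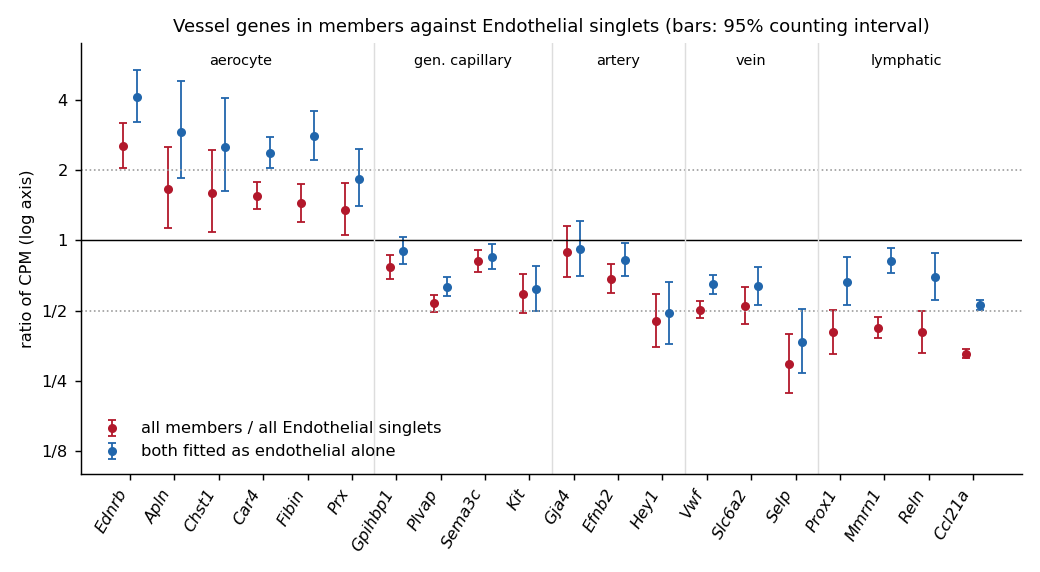
Ratio of CPM in members over Endothelial singlets for vessel genes (log axis, bars are exact 95% intervals), for all barcodes in red and for those fitted as endothelial alone in blue. Dotted lines mark 2-fold in each direction. The aerocyte genes lie above 1 in both comparisons, with Ednrb at 2.53 and 4.11, and the lymphatic gene Ccl21a lies at 0.328 and 0.529.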

How the data were processed

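The deposited tables hold UMI counts, as whole numbers, for each gene symbol in each barcode. Per the submitters' processing notes, the authors used Cell Ranger 4.0.0 and mm10. Further steps, and how the deposited annotation classed singlets, are not given in the sources used here. Counts were summed per group and expressed as CPM, ratios carry exact conditional intervals, and shares carry Clopper-Pearson intervals (95%). With 1 library per group no test was run. A group with 0 UMIs was given a floor of 3 counts over the group. No doublet caller was run, since multiplets hold several cells by design. Shares were computed after thinning each barcode to 5000 UMIs with a fixed seed.

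The mixture was fitted by Poisson EM (300 iterations, 40 genes per class). Multiplets were fitted with class profiles from all lung singlets. Endothelial singlets were fitted with profiles from a random part of the singlets that left them out, provided that part held every class. Genes named are the 12 highest and 12 lowest ratios in each comparison at 50 CPM or more, and members of the lists. The members and lists were chosen with earlier results of these data known. TMM factors came from edgeR 4.0.16 (R 4.3.3), and other steps used Python 3.11.15, numpy 2.4.6, scipy 1.17.1 and pandas 2.3.3. The fit was tested on simulated data. The intestinal libraries were used only to apply the rule. Other fold limits, CPM minimums, UMI limits, thinning and rule limits were tried.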

Additional observations from a re-analysis of the deposited data

How the results depend on the processing

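Counts of genes moved with the limits of size. Against other multiplets, the numbers higher and lower were 645 and 327 at a minimum of 50 CPM, 1589 and 1674 with no CPM minimum (50 UMIs instead), 1946 and 1021 at 1.5-fold, and 654 and 82 at 3-fold. Against Endothelial singlets they were 149 and 90 at 50 CPM and 751 and 782 at 1.5-fold. With no CPM minimum 1037 were higher, and at 3-fold 42 were lower. Against the 62 deep singlets 322 were lower. Between the 43 members and 18 singlets without any partner list 654 were higher and 913 lower. Between those fitted as endothelial alone, added after seeing the data, 192 were higher.

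Shares of members moved with UMI limits and thinning. A rule limit of 10 selected 12.2% of the multiplets. Any partner list was in 98.6% of members at 2 UMIs, 82.2% at 5 UMIs, 98.7% without thinning and 48.5% without the club and monocyte lists. Type I markers were in 17.6% at 2 UMIs, 9.13% at 5 UMIs, 20.6% without thinning and 8.35% without barcodes that had type II markers. Fibroblast markers were in 16.2% at 2 UMIs and 17.5% without thinning, and interstitial macrophage markers in 0.865% at a rule limit of 10. Aerocyte markers were in 39.5% at 3 UMIs, 56.9% without thinning and 36.2% without Car4 and Tbx2. General capillary markers were in 69.6% at 3 UMIs and 87.4% without thinning. An endothelial weight was called in 78.4% at a weight of 0.25. The other 37 of 73 values under an alternative stayed within their interval or within 1.5 times the count. The balance of calls turned in 4 settings: lower calls outnumbered higher ones with TMM (852 higher, 860 lower) and with no CPM minimum against other multiplets, and at 1.5-fold and without any partner list against Endothelial singlets.

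No paired analysis was possible because each group is 1 library without replicate numbers, and for the same reason no replicate could be left out. Depth also limits the singlet comparison: 57 of the 119 Endothelial singlets lie under 5000 UMIs.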

Other observations

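Cell cycle genes were rare in members. Mki67, a marker of dividing cells, stood at 18.1 CPM in members, 0.297 times the other multiplets, and 4 of the 5 cell cycle genes measured were called lower. Over all measured genes 7.77% were called lower than in the other multiplets. The Endothelial singlets held no UMI of the list.

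Interferon genes stood higher than in other multiplets in 4 of 7 cases, with Bst2 at 4.03 and Ifit1 at 2.86, where 13.6% of all measured genes were called higher, and none was called against Endothelial singlets. Class I antigen presentation followed, with H2-Q7 at 4.08 and H2-T23 at 2.34 among 4 of 7 genes higher, read against the same 13.6%. Of 10 genes of the dissociation response, the heat shock genes Hspa1a (2.34) and Hspa1b (2.19) were called higher. These 2 of 10 are near the 13.6% of all genes, and none of the 10 differed by 2-fold from the singlets.

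The erythroid list, made of haemoglobin genes and Alas2, was 19.8 times as high in members as in other multiplets. It was present in 5 members, and 10 barcodes held 97.4% of its UMIs. A single member held 672 of the 1016 UMIs, so the ratio rests largely on 1 barcode.

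In the small intestine the rule selected 0 of 3671 multiplets, which allows up to 0.0817%, and 1 of 5279 singlets. Only 2 of the 4 rule genes are in those tables.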
